A study of Mus musculus with 8 samples.

Results

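The 37 genes carried by mouse mitochondrial DNA were followed through 8 RNA sequencing libraries of adult mouse testis, 4 labelled Ak9-/- knockout and 4 labelled wild type. They are the rows of the count table whose symbol begins with mt-, 37 of 56748 gene identifiers, and comprise 13 protein genes, 2 ribosomal RNA (rRNA) genes and 22 transfer RNA (tRNA) genes. AK9 is an adenylate kinase, an enzyme that passes phosphate groups between adenine nucleotides, and the stated question of the series is how the loss of Ak9 alters expression in the testis. The labels give neither strain, exact age nor the kind of Ak9 allele, and nothing in them shows that each library is a different animal. The p-values therefore reflect library-to-library spread, which may be technical.

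Mitochondrial DNA is a small circle that is transcribed from both strands into long precursors. The tRNAs lie between most of the other genes, and cutting them out frees the rRNAs and messenger RNAs. The proteins are subunits of respiratory complexes I, III and IV and of ATP synthase, and the rRNAs and tRNAs serve the mitochondrial ribosome that makes them; mammalian nuclear genomes also hold copies of mitochondrial DNA, some annotated as pseudogenes. In the testis, mitochondria are wrapped around the midpiece of the sperm tail at the end of spermatid development.

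Several members are nearly repeated in the nuclear genome, which bears on what a count of them can mean, so their sequences come first. Among the annotated transcripts of GENCODE M21 (built on GRCm38, while the authors' counts use GRCm39), 11 genes matched a member at 95% identity or more over at least 80% of the shorter sequence. For mt-Atp6, which encodes a membrane subunit of ATP synthase, the match was Gm10925 on chromosome 1, identical over 678 of the 681 bases of mt-Atp6. The opening 60 bases of each read as follows.
mt-Atp6: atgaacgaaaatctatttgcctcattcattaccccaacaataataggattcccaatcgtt
Gm10925: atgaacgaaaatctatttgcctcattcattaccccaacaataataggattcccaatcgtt

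The match to mt-Co3, a core subunit of complex IV, was Gm28437 on the same chromosome, identical over 783 bases. Its opening 60 bases are shown for the same reason.
mt-Co3: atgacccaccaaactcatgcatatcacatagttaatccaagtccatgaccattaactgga
Gm28437: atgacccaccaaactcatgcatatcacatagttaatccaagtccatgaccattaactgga

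Other copies can be told apart by their letters. The copy of mt-Co1, the catalytic subunit of complex IV, on chromosome 2 (Gm13340) matched all 1545 bases at 97.6% identity with 37 substitutions. In bases 460 to 519 of mt-Co1, where capitals mark the 4 differing bases, the sequences were these.
mt-Co1: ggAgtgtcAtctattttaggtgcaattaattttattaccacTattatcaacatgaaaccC
Gm13340: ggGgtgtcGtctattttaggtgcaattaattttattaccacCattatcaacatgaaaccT

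For mt-Nd2, a complex I subunit, the copy Gm13339 on chromosome 2 matched 510 bases at 96.7% identity, and bases 667 to 726 of mt-Nd2 again held 4 differing bases, in capitals.
mt-Nd2: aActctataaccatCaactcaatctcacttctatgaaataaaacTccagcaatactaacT
Gm13339: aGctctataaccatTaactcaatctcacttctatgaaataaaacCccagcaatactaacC

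The 7 copies on chromosome 1 all lay on the minus strand and in the order of the mitochondrial genes, Gm29216, Gm28661, Gm10925, Gm28437, Gm28438, Gm10222 and Gm28439 against mt-Co1, mt-Co2, mt-Atp6, mt-Co3, mt-Nd3, mt-Nd4l and mt-Nd4. The spacing between neighbours was the same in both genomes at 5 of 6 junctions, for example 140 bases between the mt-Co1 and mt-Co2 matches and 233 bases between the mt-Co2 and mt-Atp6 matches. At the junction of mt-Nd3 and mt-Nd4l it was 73 bases on mitochondrial DNA and 74 on chromosome 1. The matched segment spanned 4653 bases of mitochondrial DNA and 4654 bases of chromosome 1. Within the matches, mt-Co2 (681 bases), mt-Atp6, mt-Co3, mt-Nd4l (294 bases) and an 876-base piece of mt-Nd4 were identical to their copies. The matches of mt-Nd3 (345 bases) and of 483 bases of mt-Co1 differed from theirs by 1 substitution each, T3C and A1066T, with positions counted from 1 at the first base of the mitochondrial gene and the mitochondrial base written first. The segment wholly contains 11 members, the protein genes mt-Co2, mt-Atp8, mt-Atp6, mt-Co3, mt-Nd3 and mt-Nd4l and 5 tRNA genes. No annotated copy passed these limits for mt-Atp8, a small ATP synthase subunit. It lies mostly in the 233-base gap between the copied mt-Co2 and mt-Atp6, and the 21.1% of it that overlaps mt-Atp6 is matched by Gm10925. The sequence of chromosome 1 itself was not used here.

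Protein genes inside this segment had far lower levels than those outside it in all 8 libraries. Levels are given as CPM (counts brought to the same total over the tested genes of each library, with TMM factors), and between genes as CPM per kilobase of gene length. The 7 protein genes outside the segment had means between 405 (mt-Nd5) and 3978 CPM per kilobase (mt-Co1) over the 8 libraries. The 6 inside had means between 1.31 (mt-Atp8) and 14.5 CPM per kilobase (mt-Nd3). The lowest mean outside was thus 27.9-fold above the highest inside, and in single libraries the genes outside stood at 338 or more and those inside at 18.4 or less. The level changed from gene to neighbouring gene at both ends of the segment, between mt-Co1 at 3978 and mt-Co2 at 9.55 CPM per kilobase, and between mt-Nd4 at 567 and mt-Nd4l at 2.47 CPM per kilobase. The segment's ends fall within mt-Co1 and mt-Nd4, which are counted as outside.

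**Figure D1:**
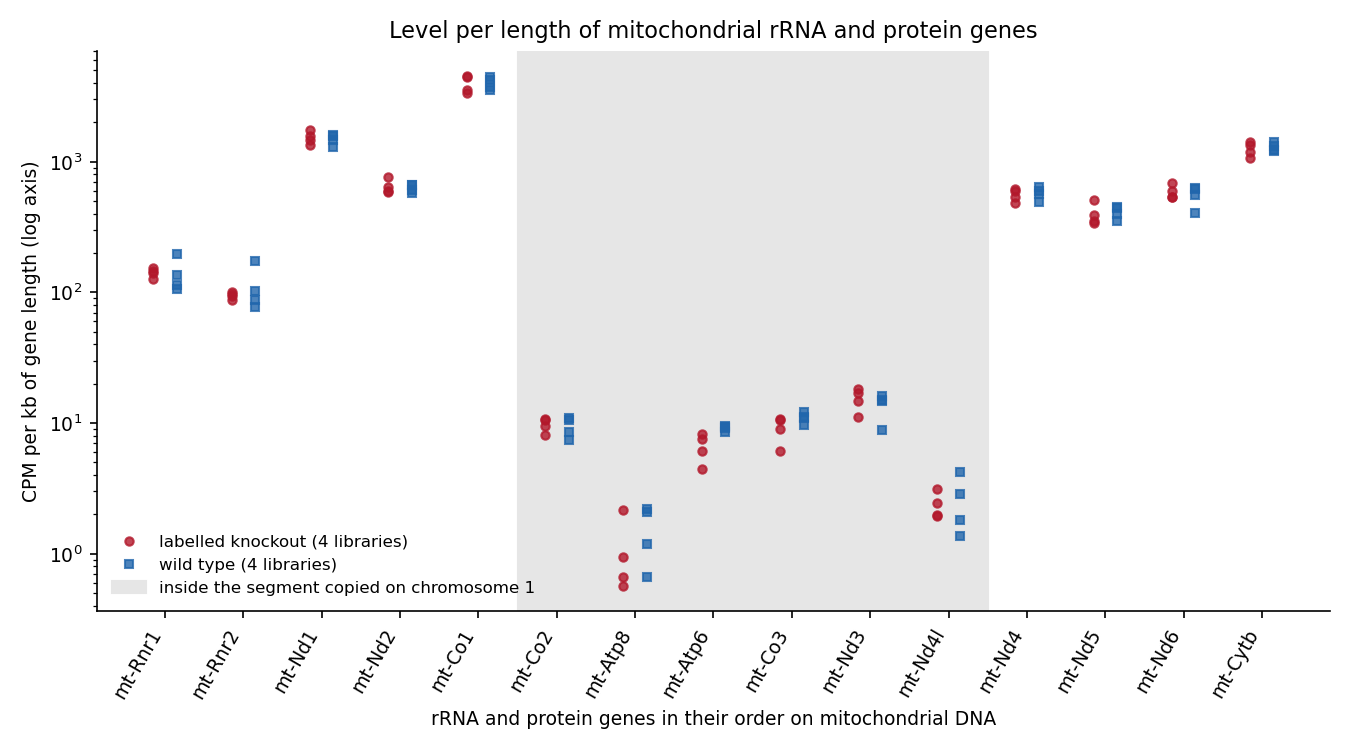
Level of the rRNA and protein genes per length, in CPM per kilobase on a log axis, with genes in their order on mitochondrial DNA, 1 point per library for 4 libraries labelled knockout (circles) and 4 wild type (squares). The 6 shaded genes, inside the segment copied on chromosome 1, average 1.31 to 14.5 CPM per kilobase and the 7 other protein genes 405 to 3978.

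The share of each member's sequence that occurs in no other annotated transcript was counted in windows of 100 bases, about the length of a sequencing read. It was 100% for mt-Nd1, mt-Nd5, mt-Nd6, mt-Cytb, mt-Atp8 and both rRNA genes, 96.8% for mt-Nd2, 69.2% for mt-Co1 and 39.3% for mt-Nd4. It was 2.41% for mt-Nd3, 1.52% for mt-Nd4l, 0.516% for mt-Atp6, 0.513% for mt-Co2 and 0.146% for mt-Co3. The 5 genes with the least unique sequence were therefore among the 6 with the lowest level per length, and mt-Atp8 was the exception, low in level yet with no window shared with another annotated transcript. The setting for reads that match several places was not given for the authors' counting, and its part in these levels was not tested.

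**Figure D2:**
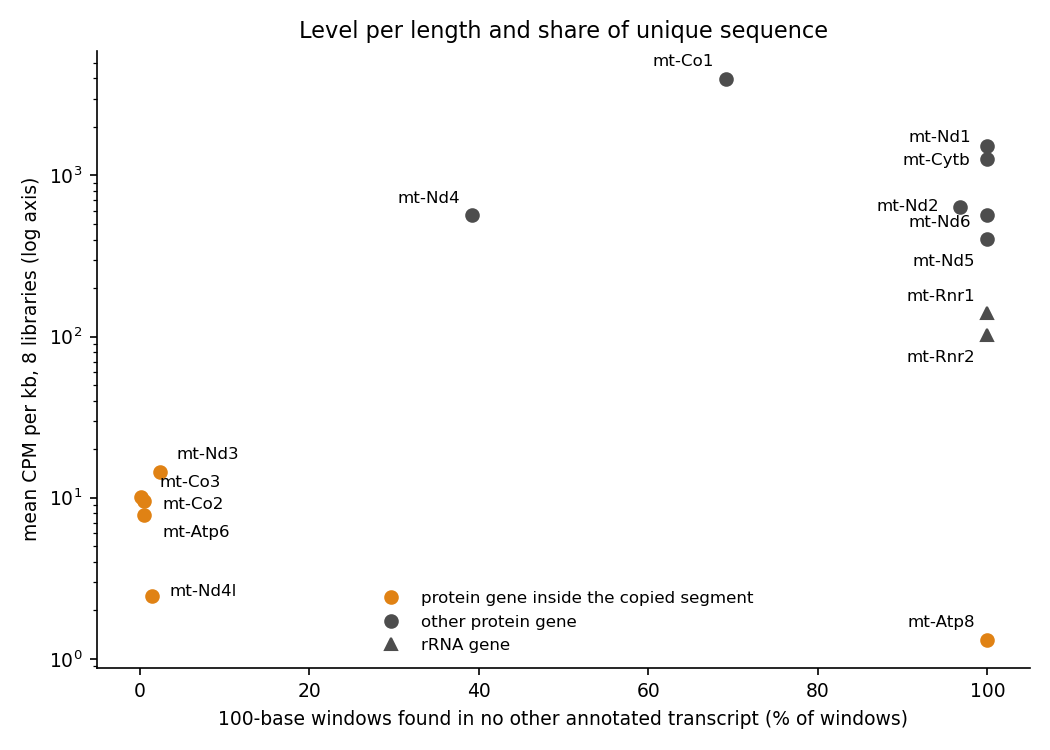
Mean level over 8 libraries in CPM per kilobase (log axis) against the percentage of 100-base windows of a gene found in no other annotated transcript, 1 point per gene. Genes inside the copied segment are orange, and mt-Co3 (0.146% unique, 10.03 CPM per kilobase) and mt-Nd4 (39.3%, 567 CPM per kilobase) lie on either side of the gap; mt-Atp8 is at 100% and 1.31.

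The 4 members identical to a copy over nearly their whole length were compared with it per length. Over the 8 libraries mt-Atp6 averaged 7.86 and Gm10925 9.60 CPM per kilobase, mt-Co2 9.55 and Gm28661 9.37, and mt-Co3 10.03 and Gm28437 7.79. mt-Nd4l averaged 2.47 and Gm10222 1.33 CPM per kilobase. For mt-Nd3, with the base difference given above, the values were 14.5 and 1.78 CPM per kilobase for Gm28438. At the edges of the segment the genes and their partial copies were far apart, mt-Co1 at 3978 and Gm29216 at 9.64, and mt-Nd4 at 567 and Gm28439 at 1.71 CPM per kilobase. On chromosome 2, Gm13340 stood at 5.24 CPM per kilobase beside the 3978 of mt-Co1. Gm13341, also on chromosome 2 and a match to mt-Co2 at 95.9% identity, stood at 3.78 beside the 9.55 of mt-Co2.

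Before the genotypes are compared, the libraries need a short account. Totals ran from 18062780 to 24415587 counts. Ak9 itself had 69.3, 116, 101 and 40.6 CPM in labelled knockouts 1 to 4, against 108, 115, 122 and 107 CPM in wild types 1 to 4, a log2 fold change of -0.47 with a standard error (SE) of 0.25 and an adjusted p of 1.00 by edgeR's quasi-likelihood test. The value was -0.24 without labelled knockout 4. Labelled knockout 2 was inside the wild-type range, and the knockout libraries are called by their label throughout. Labelled knockouts 1, 3 and 4 lay outside the wild-type range in elongating spermatid and Sertoli cell markers, and labelled knockouts 1, 2 and 4 in Leydig cell markers. In the 8 round spermatid markers labelled knockouts 1 to 4 all lay outside it. These summed to 1359, 1235, 660 and 1299 CPM in labelled knockouts 1 to 4, against 973 to 1121 CPM in wild types. The 8 elongating spermatid markers were detected in every library and summed to 18426, 14694, 7766 and 19007 CPM in labelled knockouts 1 to 4, against 12322 to 15592 CPM in wild types. The 8 Sertoli cell markers summed to 1076, 1431, 1929 and 992 CPM in labelled knockouts and to 1379 to 1536 CPM in wild types. The 8 Leydig cell markers, detected in every library, summed to 1704, 1620, 2029 and 917 CPM in labelled knockouts and to 1837 to 2149 CPM in wild types. Of 8 epididymis markers 6 were detected in labelled knockout 3 and 4 to 7 in each other library. They summed to 218 CPM in labelled knockout 3, against 11.4, 14.8 and 38.4 CPM in labelled knockouts 1, 2 and 4 and 9.83 to 11.6 CPM in wild types.

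The 37 genes together took 0.945 to 1.51% of a library. Their summed share was 0.989, 1.28, 1.51 and 0.945% in labelled knockouts 1 to 4, against 1.04, 1.35, 1.27 and 1.15% in wild types 1 to 4. The means were 1.18 ± 0.265% in labelled knockouts and 1.20 ± 0.133% in wild types (SD, n = 4 each), and the groups overlapped. The lowest and the highest share were both in labelled knockouts, number 4 with a 95% Wilson interval of 0.941 to 0.949% and number 3 with one of 1.50 to 1.51%, intervals that cover counting error only. These are also the libraries with the highest elongating spermatid marker sum (number 4, 19007 CPM) and the lowest (number 3, 7766 CPM). In round spermatid markers number 3 was again the lowest (660 CPM), but labelled knockout 1 was the highest (1359 CPM), above number 4 (1299 CPM). In Sertoli markers number 4 had the lowest sum (992 CPM) and number 3 the highest (1929 CPM). Number 4 had the lowest Leydig sum too. The part of these markers in the share was not tested. In bulk RNA from a whole testis, fewer cells of a type and less RNA per cell cannot be told apart.

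Within the set the protein genes held nearly all counts. They made up 97.0, 97.8, 97.6 and 97.2% of it in labelled knockouts 1 to 4, against 97.7, 97.6, 97.9 and 95.8% in wild types 1 to 4. The rRNA genes made up 2.81, 2.10, 2.23 and 2.60% in labelled knockouts, against 2.14, 2.25, 1.98 and 4.05% in wild types. Wild type 4 thus had the lowest protein share and the highest rRNA share of the 8 libraries, while in rRNA share the other 3 wild types lay within or just below the labelled knockouts. The rRNA means were 2.43 ± 0.330% in labelled knockouts and 2.60 ± 0.968% in wild types (SD, n = 4 each), a difference of -0.169 percentage points that became 0.312 without wild type 4. The tRNA genes held 0.171 ± 0.0212% in labelled knockouts and 0.167 ± 0.0142% in wild types (SD, n = 4 each).

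A few messages dominated the protein part in every library. mt-Co1 alone held 50.8, 55.4, 52.5 and 53.7% of the protein gene counts in labelled knockouts 1 to 4, against 53.1, 54.0, 53.1 and 52.4% in wild types 1 to 4. By mean CPM it ranked 1 among all genes of the table, and it was the highest gene in 7 of the 8 libraries. mt-Nd1 held 12.8 ± 0.698% in labelled knockouts and 12.3 ± 0.336% in wild types, and mt-Cytb 12.4 ± 0.489% and 12.8 ± 0.580% (SD, n = 4 each). The 6 genes inside the copied segment held 0.253, 0.213, 0.157 and 0.240% together in labelled knockouts 1 to 4, against 0.262, 0.220, 0.206 and 0.259% in wild types 1 to 4. All these shares overlapped between the genotypes.

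**Figure D3:**
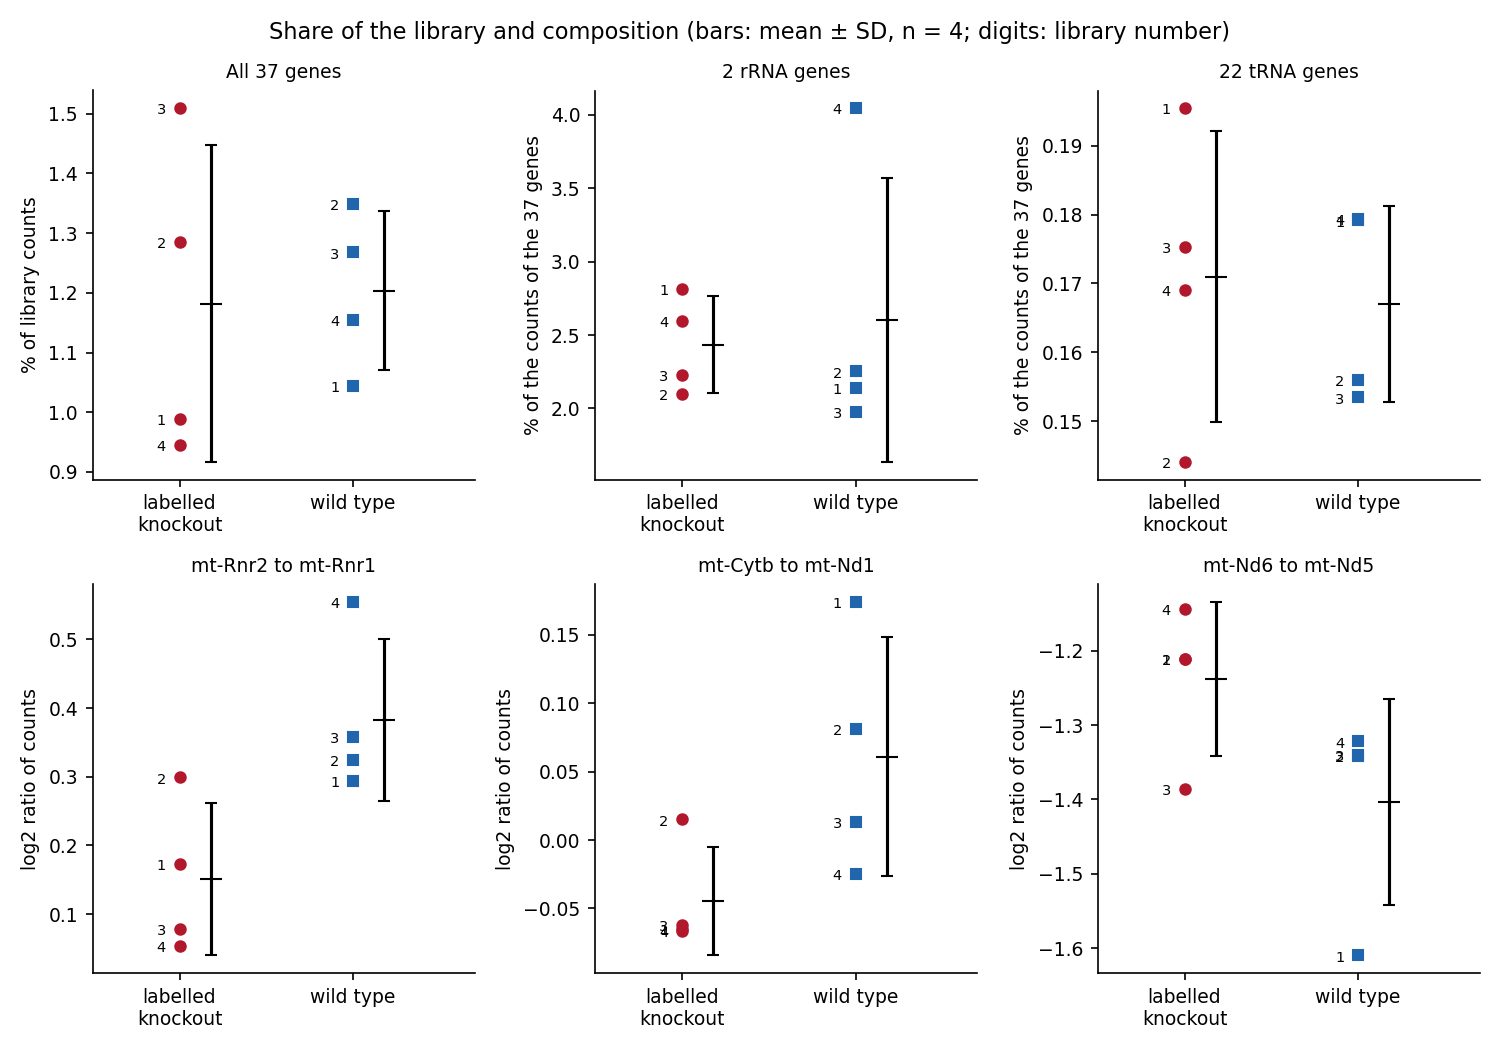
Top row, percentage of library counts in the 37 genes and percentage of their counts in rRNA and in tRNA genes; bottom row, log2 ratio of counts of neighbouring or paired genes. Points are libraries (digits give the library number), labelled knockout left of wild type, with mean ± SD (n = 4) beside them; wild type 4 is apart in rRNA share at 4.05%, and the groups overlap in each panel.

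No member passed the test of labelled knockout against wild type at an adjusted p under 0.05. Of the 37 members 21 had enough counts for the test (12 protein, 2 rRNA and 7 tRNA genes), and edgeR's quasi-likelihood test called 0 of them in either direction, as did DESeq2 and limma-voom. Over all 21805 genes tested, 0.0183% were called higher in labelled knockouts and 0% lower. At an unadjusted edgeR p under 0.05 there was 1 member, mt-Atp6, against 3.04% of all genes tested. Log2 fold changes of labelled knockout over wild type were above 0 for 11 and below 0 for 10 members, with a median of 0.00 beside 0.01 over all genes tested. Their median size was 0.092, beside 0.109 over all genes tested.

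Both rRNAs, the scaffold and catalytic RNAs of the mitochondrial ribosome, were spread more widely in wild types than in labelled knockouts, with a single wild-type library standing high. mt-Rnr1 (the small subunit rRNA) had 141, 121, 146 and 134 CPM in labelled knockouts 1 to 4, against 101, 130, 108 and 189 CPM in wild types 1 to 4. mt-Rnr2 (the large subunit rRNA) had 158, 149, 154 and 139 CPM in labelled knockouts, against 123, 163, 139 and 277 CPM in wild types. Wild type 4 was the highest library for both genes and the 4 labelled knockouts lay within the wild-type range. The log2 fold changes were 0.04 (SE 0.18) for mt-Rnr1 and -0.23 (SE 0.22) for mt-Rnr2, each with an adjusted p of 1.00 in edgeR. Without wild type 4 the values were 0.26 for mt-Rnr1 and 0.08 for mt-Rnr2. Per length both rRNAs stood below the protein genes outside the segment, at 140 CPM per kilobase for mt-Rnr1 and 103 for mt-Rnr2.

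Complex I, which passes electrons from NADH to ubiquinone, takes 7 members, 5 of them outside the copied segment. mt-Nd1 had 1417, 1521, 1682 and 1288 CPM in labelled knockouts 1 to 4, against 1238, 1525, 1498 and 1407 CPM in wild types 1 to 4. mt-Nd2 had 613, 664, 800 and 616 CPM in labelled knockouts, against 603, 693, 692 and 636 CPM in wild types. In both genes labelled knockout 3 was the highest of the 8 libraries. mt-Nd4 had 740, 855, 831 and 665 CPM in labelled knockouts, against 674, 829, 885 and 778 CPM in wild types, with wild type 3 the highest library and labelled knockout 4 the lowest. For mt-Nd5, the longest protein gene of the set, the values were 646, 714, 932 and 616 CPM in labelled knockouts and 643, 827, 810 and 726 CPM in wild types, again with labelled knockout 3 at the top.

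mt-Nd6 is the only protein gene of the set encoded on the other strand, between mt-Nd5 and mt-Cytb. It had 279, 308, 357 and 279 CPM in labelled knockouts 1 to 4, against 211, 326, 320 and 290 CPM in wild types 1 to 4, with wild type 1 the lowest library. Per length it stood at 571 CPM per kilobase, above its neighbour mt-Nd5 at 405. A strand setting for the counting was likewise not given, so reads of mt-Nd6 and reads from the opposite strand at the same place cannot be told apart. The log2 fold changes of these 5 genes ran from -0.05 (mt-Nd5) to 0.09 (mt-Nd6).

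The complex I genes inside the segment were measured with far fewer counts. mt-Nd3 had 6.40, 5.11, 5.97 and 3.85 CPM in labelled knockouts 1 to 4, against 3.10, 5.21, 5.14 and 5.60 CPM in wild types 1 to 4. mt-Nd4l had 0.59, 0.72, 0.94 and 0.58 CPM in labelled knockouts, against 0.53, 0.40, 0.85 and 1.25 CPM in wild types. The groups overlapped in both, and the log2 fold changes were 0.16 (SE 0.23) for mt-Nd3 and -0.10 (SE 0.38) for mt-Nd4l, while without wild type 4 that of mt-Nd4l was 0.24 and without wild type 1 that of mt-Nd3 was 0.0085.

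Complex III receives the electrons from ubiquinone and has a single mitochondrially encoded subunit, cytochrome b. mt-Cytb had 1355, 1537, 1612 and 1230 CPM in labelled knockouts 1 to 4, against 1396, 1613, 1512 and 1383 CPM in wild types 1 to 4. Labelled knockout 4 was the lowest library and the others intermingled. The log2 fold change was -0.04 (SE 0.13).

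Complex IV, cytochrome c oxidase, reduces oxygen, and its 3 mitochondrial genes split between the sides of the segment's edge. mt-Co1 had 5234, 6981, 6894 and 5473 CPM in labelled knockouts 1 to 4, against 5436, 6858, 6511 and 5776 CPM in wild types 1 to 4. Its means were 6146 ± 921 CPM in labelled knockouts and 6145 ± 654 CPM in wild types (SD, n = 4 each), a log2 fold change of 0.00 (SE 0.16). mt-Co2, whose protein carries the site that takes electrons from cytochrome c, had 6.54, 7.33, 5.53 and 7.23 CPM in labelled knockouts, against 7.54, 7.18, 5.06 and 5.85 CPM in wild types. Its groups overlapped, with a log2 fold change of 0.06 (SE 0.18). mt-Co3 had 8.25, 8.40, 4.79 and 7.06 CPM in labelled knockouts, against 8.66, 8.71, 7.52 and 9.55 CPM in wild types; labelled knockouts 3 and 4 lay below all wild types and the other labelled knockouts among them. Its log2 fold change was -0.27 (SE 0.19), and -0.13 without labelled knockout 3.

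ATP synthase makes ATP from the proton gradient, and mt-Atp6 was the only tested member whose groups did not overlap. It had 4.15, 5.11, 3.01 and 5.60 CPM in labelled knockouts 1 to 4, against 6.52, 6.24, 6.39 and 5.80 CPM in wild types 1 to 4, so that the highest labelled knockout lay below the lowest wild type. Groups that did not overlap, with labelled knockouts lower, made up 1.32% of all genes tested, and 0.981% had them higher. Among the 21 tested members mt-Atp6 was the only gene lower without overlap and 0 were higher. The means were 4.47 ± 1.14 CPM in labelled knockouts and 6.24 ± 0.314 CPM in wild types (SD, n = 4 each), with a log2 fold change of -0.48 (SE 0.20), an unadjusted p of 0.0357 and an adjusted p of 1.00 in edgeR's quasi-likelihood test. With 1 library left out, the unadjusted edgeR p ran from 0.0125 without labelled knockout 4 to 0.0751 without wild type 1.

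The result for mt-Atp6 depends on whether its identical copy is counted with it. Gm10925 had 6.13, 7.62, 3.65 and 6.41 CPM in labelled knockouts 1 to 4, against 7.70, 6.91, 7.44 and 6.20 CPM in wild types 1 to 4, and overlapped between the groups. Summed, the pair had 10.3, 12.7, 6.66 and 12.0 CPM in labelled knockouts, against 14.2, 13.2, 13.8 and 12.0 CPM in wild types. Labelled knockouts 2 and 4 then lay above wild type 4, so that the groups overlapped. With all copies added to their members, the log2 fold change of mt-Atp6 was -0.37 with an unadjusted edgeR p of 0.0770. mt-Atp8, the other ATP synthase gene, had 3, 4, 9 and 2 counts in labelled knockouts 1 to 4 and 8, 3, 6 and 9 counts in wild types 1 to 4. That is close to the limit of 3 counts which a count of 0 allows, and the gene was not tested.

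**Figure D4:**
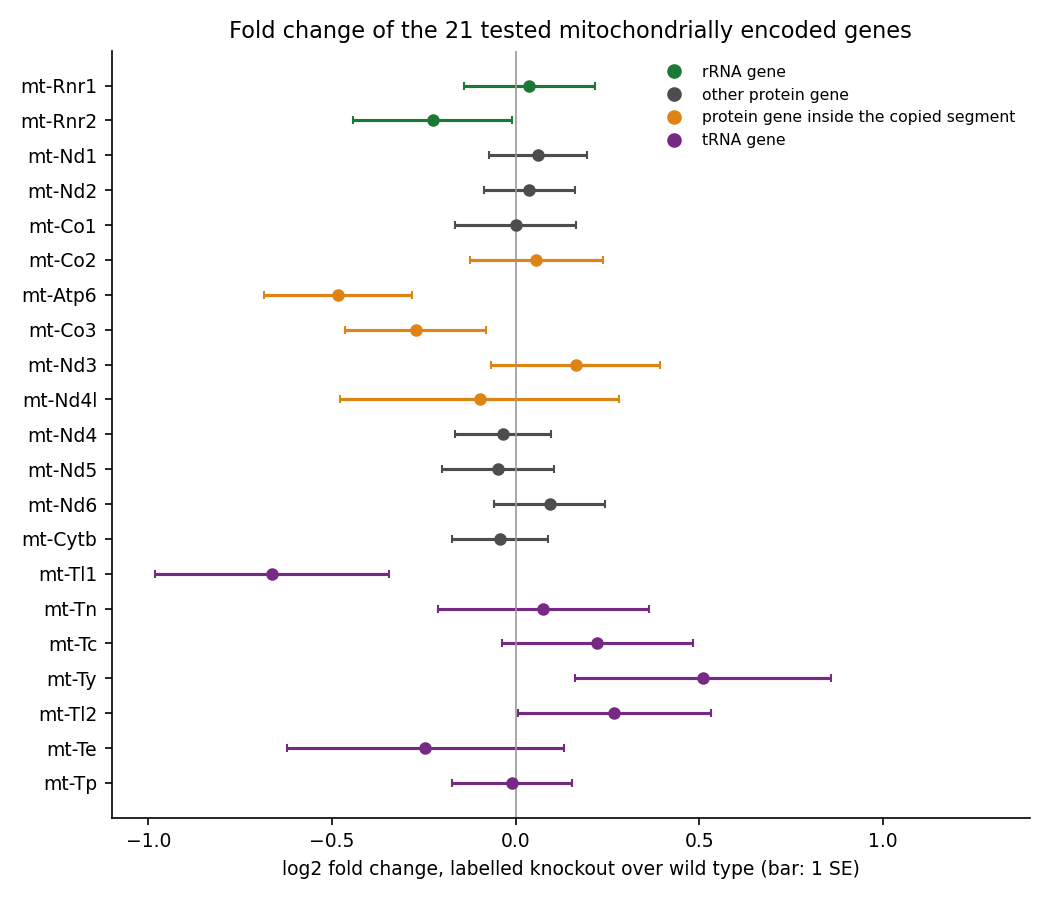
Log2 fold change of labelled knockout over wild type with 1 SE for the 21 tested members, from edgeR, in 4 classes by colour. The values of the protein genes outside the copied segment lie between -0.05 and 0.09; mt-Tl1 (-0.66), mt-Ty (0.51) and mt-Atp6 (-0.48) are farthest from 0, and none has an adjusted p under 0.05.

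Summed levels put labelled knockout 3 at opposite ends on the sides of the segment's edge. Summed over the 7 protein genes outside, it had the highest level of the 8 libraries, with 10284, 12580, 13108 and 10166 CPM in labelled knockouts 1 to 4, against 10201, 12671, 12228 and 10995 CPM in wild types 1 to 4. Summed over the 6 inside, it had the lowest, with 26.1, 26.9, 20.7 and 24.4 CPM in labelled knockouts, against 26.8, 27.9, 25.2 and 28.5 CPM in wild types. It was also lowest for the 7 chromosome 1 copies, which summed to 26.6, 31.6, 15.3 and 27.1 CPM in labelled knockouts, against 28.3, 27.1, 24.1 and 29.7 CPM in wild types. The low sum inside did not run through all 6 genes: labelled knockout 3 was the lowest library for mt-Atp6 and mt-Co3 and among the highest 3 for mt-Nd3, mt-Nd4l and mt-Atp8. Of the 7 copies it was lowest for 5, and of the 7 genes outside it was highest for 4. Labelled knockout 3 also had the lowest spermatid and the highest epididymis marker sums given above, and their part in this was not tested. The share of protein gene counts held inside the segment was 0.216 ± 0.0422% in labelled knockouts and 0.236 ± 0.0281% in wild types (SD, n = 4 each). Their difference of -0.0206 percentage points was -0.00118 without labelled knockout 3.

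**Figure D5:**
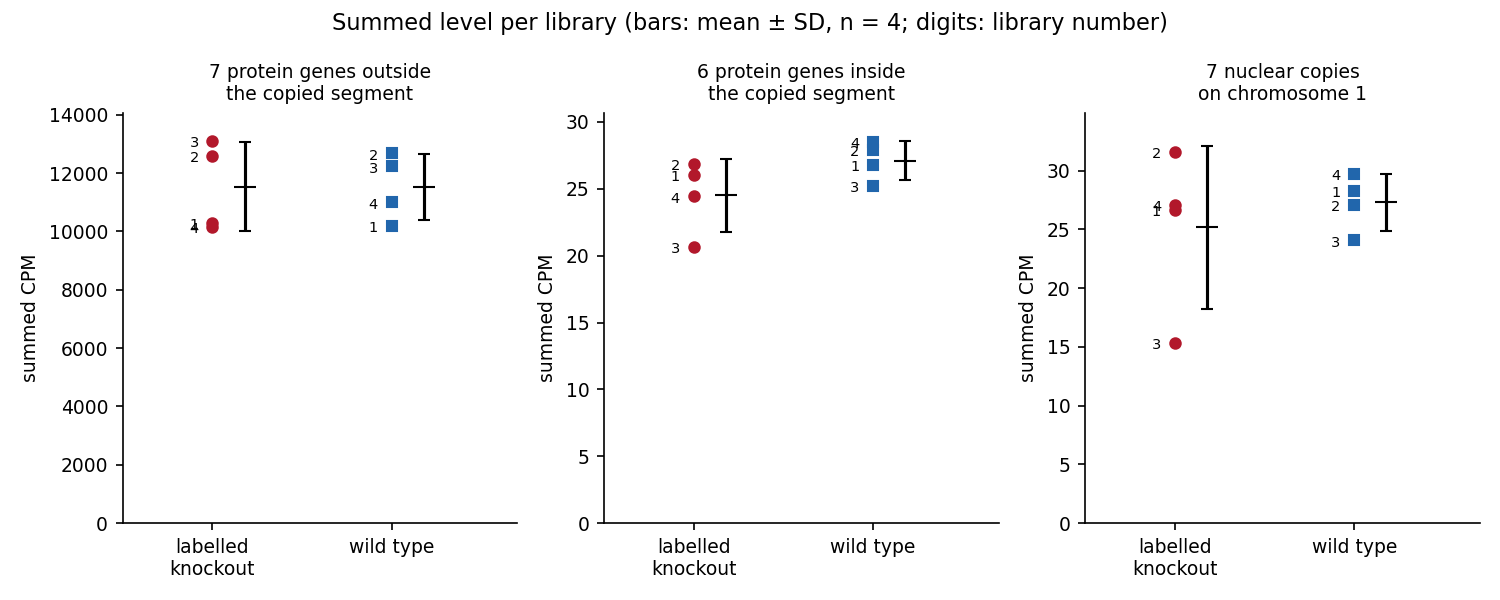
Summed CPM per library of the 7 protein genes outside the copied segment, the 6 inside it and the 7 nuclear copies on chromosome 1, with labelled knockout left of wild type, digits for the library number and mean ± SD (n = 4). Labelled knockout 3 is the highest library outside (13108 CPM) and the lowest inside (20.7 CPM) and in the copies (15.3 CPM).

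The tRNA genes were barely counted, and unevenly. The 22 genes held 3319 counts over the 8 libraries together; 7 (mt-Tf, mt-Tv, mt-Tq, mt-Tm, mt-Ts1, mt-Td and mt-Tk) had 0 counts in every library, 4 had between 1 and 10 and 11 had more. A count of 0 allows up to 0.121 to 0.175 CPM in a library, taking 3 counts as the limit. mt-Tp, the tRNA for proline, alone held 46.8% of the tRNA counts. The 8 genes encoded on the same strand as mt-Nd6 held 2754 counts or 82.98%, between 78.9 and 86.3% in each library, and the 14 of the opposite orientation 565 counts or 17.02%. Most of the 2754 lay in mt-Tp (1552), mt-Tc (616) and mt-Tn (369), while mt-Tq and mt-Ts1 on that strand had 0. With no strand setting given, reads from either strand at a tRNA gene cannot be told apart. The 5 tRNA genes inside the copied segment held 54 counts.

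The 5 tRNA genes with the highest mean level are printed from the GENCODE M21 transcripts in DNA letters, since they are the ones whose values follow, with the anticodon in capitals.
mt-Tp: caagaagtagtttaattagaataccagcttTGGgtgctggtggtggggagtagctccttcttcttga
mt-Tc: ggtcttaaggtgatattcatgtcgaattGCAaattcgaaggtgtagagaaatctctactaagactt
mt-Tn: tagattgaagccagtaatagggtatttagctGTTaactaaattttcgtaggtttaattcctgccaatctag
mt-Tl1: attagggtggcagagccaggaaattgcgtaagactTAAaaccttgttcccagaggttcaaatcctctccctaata
mt-Tl2: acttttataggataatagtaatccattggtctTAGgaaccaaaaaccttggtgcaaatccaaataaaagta

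None of these 5 passed the test. mt-Tp had 8.74, 10.2, 9.92 and 8.05 CPM in labelled knockouts 1 to 4, against 7.16, 9.97, 10.6 and 9.45 CPM in wild types 1 to 4. mt-Tc (cysteine) had 5.05, 2.75, 4.54 and 3.79 CPM in labelled knockouts, against 4.76, 3.28, 2.31 and 3.55 CPM in wild types. mt-Tn (asparagine) had 2.75, 1.50, 2.57 and 2.39 CPM in labelled knockouts, against 2.78, 2.60, 1.29 and 2.10 CPM in wild types. The groups overlapped in each, with log2 fold changes of -0.01, 0.22 and 0.07 in that order. The value for mt-Tc was 0.07 without wild type 3 and 0.41 without wild type 1.

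The tRNAs for leucine read different codons, with anticodons TAA in mt-Tl1 and TAG in mt-Tl2. mt-Tl1, which directly follows mt-Rnr2 on the circle, had 0.72, 0.58, 1.28 and 0.64 CPM in labelled knockouts 1 to 4, against 1.18, 0.94, 1.42 and 1.60 CPM in wild types 1 to 4. Labelled knockouts 1, 2 and 4 lay below all wild types and labelled knockout 3 among them. The log2 fold change was -0.66 (SE 0.32) with an adjusted p of 1.00 in edgeR; without labelled knockout 3 it was -0.99 with an adjusted p of 0.130. mt-Tl2 had 1.26, 1.21, 1.87 and 0.93 CPM in labelled knockouts, against 1.12, 1.08, 1.09 and 1.10 CPM in wild types, which differed little among themselves and lay inside the labelled knockout range. Its log2 fold change was 0.27 (SE 0.26), and 0.0431 without labelled knockout 3. Among the other tested tRNA genes, mt-Ty had a log2 fold change of 0.51 (SE 0.35) and mt-Te one of -0.25 (SE 0.38). The remaining 15 tRNA genes were not tested.

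Ratios of counts within a library need no scaling, and 3 were compared by an exact two-sided permutation test, for which 4 against 4 libraries allow a smallest p of 0.0286. The log2 ratio of mt-Rnr2 to mt-Rnr1, neighbours on the same strand, was 0.17, 0.30, 0.08 and 0.05 in labelled knockouts 1 to 4, against 0.29, 0.32, 0.36 and 0.55 in wild types 1 to 4. Labelled knockout 2 was the only labelled knockout to overlap the wild types. The difference of -0.23 had an exact p of 0.0571, or 0.114 after Benjamini-Hochberg adjustment over the 3 ratios. Without labelled knockout 2 it was -0.28, with an unadjusted exact p of 0.0286, the smallest the remaining libraries allow. Dropping the labelled knockout that overlapped the wild types lowered that p, so no conclusion is drawn from it. Without wild type 1 the groups did not overlap either, and the unadjusted exact p was 0.0571. With any other library left out, the unadjusted exact p was 0.0571 to 0.0857. Without wild type 4 the difference was -0.17.

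The other ratios overlapped between the genotypes too. The log2 ratio of mt-Cytb to mt-Nd1, the last and the first protein gene read in the direction of most genes, was -0.06, 0.02, -0.06 and -0.07 in labelled knockouts 1 to 4, against 0.17, 0.08, 0.01 and -0.02 in wild types 1 to 4, a difference of -0.11 (exact p 0.0857, adjusted 0.114). The log2 ratio of mt-Nd6 to mt-Nd5, neighbours on opposite strands, was -1.21, -1.21, -1.39 and -1.14 in labelled knockouts, against -1.61, -1.34, -1.34 and -1.32 in wild types, a difference of 0.17 (exact p 0.114, adjusted 0.114). Labelled knockout 3 was the library among the wild types. Without it the difference was 0.21, with an unadjusted exact p of 0.0286, the smallest the remaining libraries allow. That p too was lowered by dropping the only labelled knockout among the wild types, so no conclusion is drawn from it. With any other library left out, the unadjusted exact p was 0.114 to 0.286.

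The nuclear genes that serve these transcripts were read alongside them, and none of 4 lists had a member past the threshold. Of 19 genes for mitochondrial transcription and genome maintenance, 11 had a log2 fold change above 0 and 8 below, with a median of 0.05. The smallest p was that of Mterf3, a factor of mitochondrial ribosome assembly, with 59.2 ± 9.79 CPM in labelled knockouts and 48.0 ± 4.51 CPM in wild types (SD, n = 4 each) and a log2 fold change of 0.30 (SE 0.13). Tfam, which packages mitochondrial DNA and starts its transcription, had 210, 204, 98.3 and 228 CPM in labelled knockouts 1 to 4, against 187, 167, 186 and 176 CPM in wild types 1 to 4. Labelled knockout 3 had the least Tfam. It was also the library with the highest summed CPM of protein genes outside the copied segment and the lowest spermatid marker sum. Whether these values are related was not tested. Polrmt, the mitochondrial RNA polymerase, averaged 31.3 ± 2.67 CPM in labelled knockouts and 30.0 ± 2.19 CPM in wild types (SD, n = 4 each).

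Of 32 tested genes for mitochondrial RNA processing and turnover, 17 were above 0 and 15 below, with a median of 0.01. Ptcd1 had the smallest p, with 35.7 ± 4.60 CPM in labelled knockouts and 28.6 ± 1.47 CPM in wild types (SD, n = 4 each) and a log2 fold change of 0.32 (SE 0.11). Elac2, which cuts the 3′ ends of tRNAs from the precursor, averaged 38.7 ± 2.96 CPM in labelled knockouts and 37.8 ± 2.80 CPM in wild types, and Lrpprc, which stabilises mitochondrial messages, 57.3 ± 6.10 CPM and 63.2 ± 3.49 CPM (SD, n = 4 each). Tfam, Polrmt, Elac2 and Lrpprc were picked for their roles, after their values were seen.

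The enzymes and ribosomal proteins of mitochondrial translation also passed no threshold. Of 22 tRNA synthetase genes 12 were above 0 and 10 below, with a median of 0.01 and the smallest p for Vars2, which charges the valine tRNA, at 14.8 ± 4.65 CPM in labelled knockouts and 11.8 ± 0.254 CPM in wild types (SD, n = 4 each). Of 51 mitochondrial ribosomal protein genes 43 had a log2 fold change above 0 and 8 below, with a median of 0.08 beside 0.01 over all genes tested. The share of all genes above 0 was not taken, and the direction of the list was not tested. At an unadjusted edgeR p under 0.05 there was 1 of the 51, against 3.04% of all genes tested. Mrpl22, with the smallest p among them, had 29.5 ± 4.65 CPM in labelled knockouts and 23.5 ± 1.54 CPM in wild types (SD, n = 4 each). Each of these genes had an adjusted p of 1.00 in edgeR.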

How the data were processed

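RNA sequencing covered adult testis, with 4 Ak9 knockout and 4 wild-type libraries by their labels. The values used were raw counts per Ensembl gene, deposited by the authors without normalization. The submitters' processing notes name STAR, featureCounts, Trimmomatic and DESeq2, with the builds GRCm39 and mm39. Versions, annotation release, strand setting and the handling of multiply matching reads were not given in the sources. All 8 count columns were mapped to a sample by title (0 unmapped). Of 56748 identifiers, 4675 had no symbol.

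All genes were filtered with filterByExpr (minimum count 10, minimum total 15), scaled by TMM and tested together, labelled knockout over wild type, with edgeR 4.0.16 (quasi-likelihood, R 4.3.3) and Benjamini-Hochberg adjustment at 0.05 over 21805 genes. The script was tested on simulated counts. Shares were taken of the total of all counts, and 3 log2 count ratios were compared by exact permutation. DESeq2 1.42.0, limma-voom 3.58.1, another filter or scaling, added copies, the replicate block and each library left out were alternatives.

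Members were aligned to the GENCODE M21 transcripts with blastn 2.17.0. That annotation is on GRCm38, so no coordinates are given. All 37 members are accounted for. The 2 rRNA and 13 protein genes are given in every library, and the 5 highest tRNA genes are named, as are the gene of each list with the smallest p and copies. The members and lists were chosen with earlier results of these data known. No library duplicated another of its group: the lowest chi-square per gene was 4.19.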

Additional observations from a re-analysis of the deposited data

Results flagged for a closer look

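In 4 of 84 groups of 4 libraries checked, 1 library lay far from the other 3 by Dixon's test at its 95% limit; chance alone flags about 1 group in 20, or 4.2 of 84.

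Wild type 4 had a protein gene share of 95.8% of the mitochondrial counts, while the other wild types lay between 97.6 and 97.9%. Its rRNA share was 4.05%, with the other wild types between 1.98 and 2.25%. These 2 flags are the same counts seen from either side.

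Labelled knockout 2 had a log2 ratio of mt-Cytb to mt-Nd1 of 0.0150, with the other labelled knockouts between -0.0666 and -0.0619. Wild type 1 had a log2 ratio of mt-Nd6 to mt-Nd5 of -1.61, with the other wild types between -1.34 and -1.32. No group difference in these ratios passed the exact test, as given above.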

How the results depend on the processing

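The count of 0 mitochondrially encoded genes called was the same under all 16 alternatives, the smallest adjusted p of a member being 0.130 (mt-Tl1 in edgeR without labelled knockout 3). Over all genes, 4 calls became 26 without a low-count filter (16 higher, 10 lower) and 48 with DESeq2 (27 higher, 21 lower), and ran from 3 to 35 with 1 library left out: 33 without labelled knockout 1, 35 without labelled knockout 3, 33 without labelled knockout 4 and 3 without wild type 1. The cause was not tested. The group differences in library share, protein share, rRNA share and tRNA share moved by less than 1 SD under every alternative. The library share difference of -0.0217 percentage points ran from -0.131 to 0.0573, and the protein share difference of 0.165 became -0.320 without wild type 4. With 1 library left out, the log2 ratio of mt-Rnr2 to mt-Rnr1 ran from -0.28 to -0.17 and that of mt-Nd6 to mt-Nd5 from 0.10 to 0.21.

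Of 319 single-gene values under alternatives, 284 kept their direction and side of the threshold and 35, over 13 genes, changed sign without passing the threshold. With 1 library left out, the log2 fold change ran from -0.0728 to 0.259 for mt-Rnr1, -0.362 to 0.0824 for mt-Rnr2, -0.0207 to 0.120 for mt-Nd1, -0.0685 to 0.0785 for mt-Nd2, -0.077 to 0.0662 for mt-Co1, -0.0431 to 0.143 for mt-Co2, -0.308 to 0.235 for mt-Nd4l, -0.104 to 0.0309 for mt-Nd4, -0.202 to 0.0244 for mt-Nd5, -0.0295 to 0.161 for mt-Nd6, -0.116 to 0.0241 for mt-Cytb, -0.115 to 0.0592 for mt-Tp and -0.116 to 0.223 for mt-Tn. Among genes that kept their sign it ran from -0.376 to -0.133 for mt-Co3, 0.0085 to 0.289 for mt-Nd3, 0.0657 to 0.410 for mt-Tc, 0.0431 to 0.397 for mt-Tl2, -0.990 to -0.540 for mt-Tl1, -0.609 to -0.349 for mt-Atp6 and -0.688 to -0.243 for Ak9. That of mt-Co1 was also -0.006 with the replicate block, -0.0129 without a filter, -0.0065 at a mean of at least 1 CPM, -0.0063 in limma-voom and -0.0084 with copies added, and that of mt-Nd4l 0.0056 in limma-voom.

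Same-numbered libraries of the 2 genotypes did not deviate together (correlations of 0.0902, 0.0443, -0.0263 and 0.0305 for numbers 1 to 4), and not every library correlated best with its own number. The replicate block left the count of calls at 4 over all genes and 0 among members.

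Depth limits the genes inside the copied segment and the tRNA genes most: 3 counts correspond to 0.121 to 0.175 CPM, and mt-Atp8 never exceeded 9 counts in a library.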
